A study of Mus musculus with 7 samples.

Results

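Carbonic anhydrases are zinc enzymes that convert carbon dioxide and water into bicarbonate and a proton, and back. They fall into types by where the active site sits: free in the cytosol, outside the cell on a membrane anchor, in mitochondria or in secretions. A few relatives have lost the zinc-binding histidines and the activity with them. In the inner ear these enzymes are best known from the lateral wall of the cochlea, where bicarbonate and proton transport keep the pH and the ions of the cochlear fluids in balance.

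The 9 carbonic anhydrase genes described here are Car2, Car3, Car4, Car8, Car9, Car11, Car12, Car13 and Car14, out of 16 genes with a Car symbol in the annotation and 48709 genes in all. They were chosen by name, on a list drawn up with measured values of these libraries known. Car14 in particular had been named before for its difference between the TSA and GSK-343 libraries. The values of Car14 in that comparison, and in the comparisons with DMSO, which rest on the same TSA or GSK-343 libraries, are therefore given with no p-value. Where counts of called members include Car14, they are a description only. The differences of the other members carry a p-value from the fit over all genes, and their choice makes these a description too.

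The libraries are RNA of supporting cells, the non-sensory cells around the hair cells, from mouse cochleae at postnatal day 1. The organs were held for 48 h in culture medium with EGF and FGF added, in all groups alike, and GFP-positive cells were sorted from them. There were 2 libraries from organs given 200 nM TSA (trichostatin A, an inhibitor of histone deacetylases), 3 from organs given 10 µM GSK-343 (an inhibitor of EZH2, the histone methyltransferase of Polycomb repressive complex 2), and 2 from organs given the solvent DMSO. The labels name neither the line that carries GFP nor the animals behind each library, so a p-value measures only the spread between these samples, which may be technical.

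Levels are given in TPM, the share of a library's transcripts that a gene holds after division by transcript length, which can be compared between genes. Differences are log2 fold changes ± SE from edgeR's quasi-likelihood test on expected counts, with p-values adjusted by Benjamini-Hochberg over the 14907 genes tested, and "passed" means an adjusted p under 0.05. The total expected count was 2724381 to 2963228 in TSA, 3398893 to 4248336 in GSK-343 and 5124247 to 5974230 in DMSO libraries. In the deposited tables the median difference between a gene's length and its effective length was 208.21 to 212.69 bases in the treated libraries and 49 bases in DMSO libraries, so treatment and read layout cannot be told apart in any comparison with DMSO. Nuclear protein-coding genes held 78.2% to 93.4% of counts in treated libraries and 62.5% to 63.4% in DMSO libraries. TPM is a share of each library's transcripts, so a member can be higher in TPM in a treated library and not in TMM-normalised CPM (counts relative to the library total after edgeR's scaling, with no division by length). The part of this share in the TPM differences from DMSO was not tested.

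Of the 15 supporting cell markers, all tested, 0 were higher and 9 lower in TSA than in GSK-343 by edgeR (0 and 12 at an unadjusted p under 0.05, 0 and 9 by DESeq2's Wald test, 0 and 1 by limma on log2(TPM + 0.5)). Of all genes tested in that comparison, 5.04% were higher and 5.68% lower. In TSA against DMSO 1 marker was higher and 8 lower, with a median log2 fold change of −1.04, beside 13.1% and 16.1% of all genes. In GSK-343 against DMSO 4 were higher and 4 lower, with a median of 0.12, beside 18.1% and 21.5%. DESeq2's Wald test gave the same counts in both. Limma on log2(TPM + 0.5) gave 1 higher and 4 lower in TSA against DMSO, and 5 higher and 0 lower in GSK-343 against DMSO. Their summed level was 8041 to 10864 TPM in TSA, 20909 to 32271 TPM in GSK-343 and 4033 to 5556 TPM in DMSO libraries, with none at 0 in all libraries of a group. S100a1, a calcium-binding protein, held much of these sums, at 6686 and 5628 TPM in TSA, 15057, 26992 and 27765 TPM in GSK-343, and 1204 and 767 TPM in DMSO libraries. The other 14 markers summed to 4178 and 2413 TPM in TSA, 5851, 5279 and 4304 TPM in GSK-343, and 4352 and 3266 TPM in DMSO libraries, where TSA and GSK-343 each overlap DMSO. Neuron markers summed to 386 to 496 TPM in TSA, 31.2 to 60.7 TPM in GSK-343 and 26 to 51.1 TPM in DMSO libraries, and 4 of the 8 tested were higher in TSA than in GSK-343. Hair cell markers summed to 450 to 1686 TPM in TSA, 293 to 574 TPM in GSK-343 and 84.2 to 111 TPM in DMSO libraries, and 0 of 10 passed in TSA against GSK-343 by edgeR, DESeq2 or limma, while 3 were higher and 1 lower at an unadjusted p under 0.05. In RNA of pooled cells, fewer cells of a type and less RNA per cell cannot be told apart, and the part of these markers in the differences below was not tested.

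Car14 was the member with the largest log2 fold changes of TSA against either other group. It encodes a single-pass membrane enzyme whose active site faces outward. It was 1st of the 16 Car genes by mean TPM in GSK-343 and in DMSO libraries, and 5th in TSA libraries. The plot of the members' levels sets it beside the others, of which only Car2 came near its level in GSK-343.

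**Figure D1:**
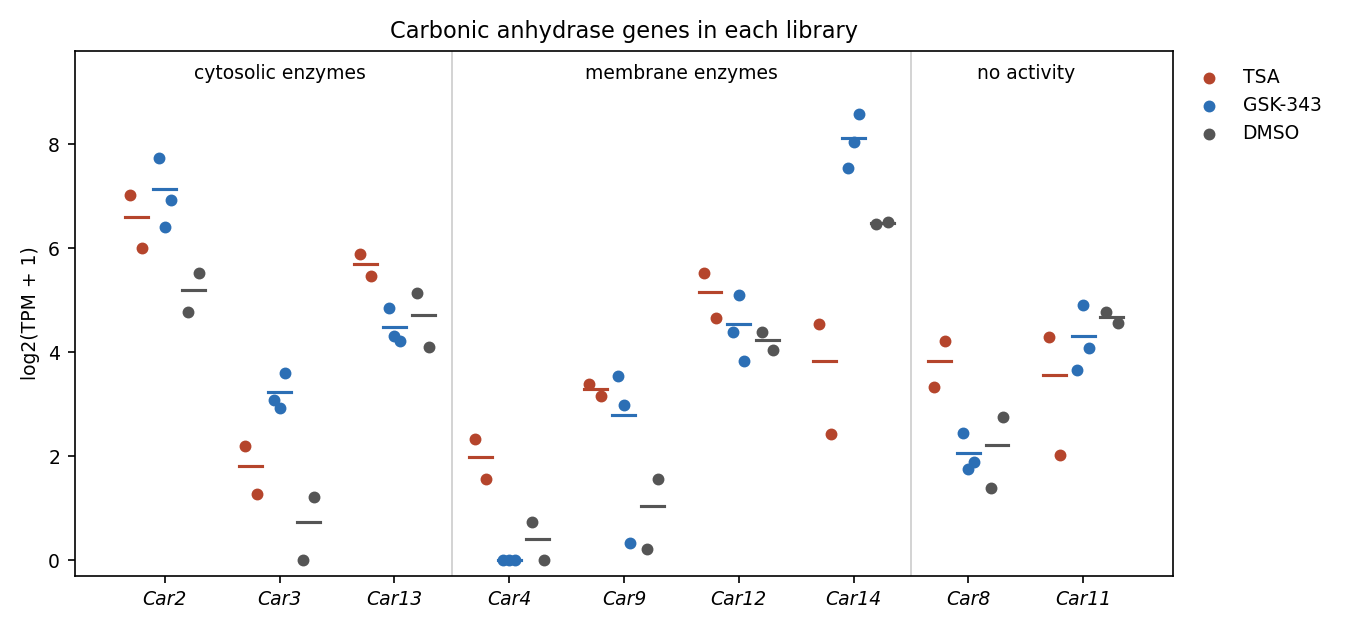
Each point is 1 library, the vertical axis is log2(TPM + 1), and the short lines stand at the group's mean TPM on the same axis, for TSA (2 libraries), GSK-343 (3) and DMSO (2), with members ordered by where the protein acts. Car14 is the member whose TSA points (22.3 and 4.34 TPM) lie farthest below those of GSK-343 (185 to 380 TPM), while the Car12 points of all 3 groups lie between 13.3 and 45.3 TPM.

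Beside Car14, the promoter of Car9 is shown, because Car9 is the family's textbook target of the hypoxia-inducible factors. These factors bind the core ACGTG, marked in capitals where it occurs (as CACGT when it reads on the opposite strand). Shown are the 250 bases before each start, 5′ to 3′ on the gene's strand, from RefSeq, build GRCm38.p6: chr3:95904686-95904935 on the minus strand for Car14 and chr4:43506776-43507025 on the plus strand for Car9.
Car14: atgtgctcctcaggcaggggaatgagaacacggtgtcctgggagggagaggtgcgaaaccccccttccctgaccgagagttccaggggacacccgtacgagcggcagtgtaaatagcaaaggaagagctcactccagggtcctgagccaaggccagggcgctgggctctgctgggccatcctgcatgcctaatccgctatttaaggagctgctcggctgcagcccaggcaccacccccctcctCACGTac
Car9: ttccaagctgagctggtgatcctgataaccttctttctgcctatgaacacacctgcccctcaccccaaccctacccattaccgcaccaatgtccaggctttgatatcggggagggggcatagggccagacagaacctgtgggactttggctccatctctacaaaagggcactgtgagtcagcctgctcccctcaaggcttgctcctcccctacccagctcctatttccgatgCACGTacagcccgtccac
The core begins at position −7 from the start in Car14 and at position −18 in Car9, and neither copy is part of the longer motif CACGTG. These positions count from the RefSeq starts, and the GENCODE M21 annotation begins both genes further upstream. Car9 begins there at chr4:43506966, so its marked core lies inside the gene as annotated there. Car14 begins there at chr3:95904691 on the minus strand, a position within its marked core. Over windows of 300 bases, from 250 before to 50 after the start, 19.6% of 32851 windows held the core on either strand. Windows were found for 5 of the 9 members (Car4, Car9, Car11, Car12 and Car14), and that of Car4 also held the core, at position 2. A match describes the letters of these windows and says nothing of binding.

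Car14 lies at chr3:95897768-95904691 on the minus strand (GRCm38, gene ENSMUSG00000038526.14 in the files). It stood at 22.3 and 4.34 TPM in TSA libraries, at 185, 263 and 380 TPM in GSK-343 libraries, and at 87.1 and 90.3 TPM in DMSO libraries. The groups did not overlap: both TSA libraries were below all others, and all GSK-343 libraries were above both DMSO libraries. The expected counts behind these levels were 47.8 and 10.64 in TSA, 484.6 to 1473 in GSK-343 and 470 to 483 in DMSO libraries.

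The log2 fold change of Car14 was −4.79 ± 0.60 for TSA against GSK-343, or 27.7-fold lower in TSA. Against DMSO it was −3.78 ± 0.59, or 13.8-fold lower in TSA. Both signs were the same in all 19 alternative settings and left-out libraries, with ranges of −6.16 to −4.13 and −5.10 to −2.87. These fits use the libraries from which Car14 had been named, so nothing is read from the kept signs. For GSK-343 against DMSO the log2 fold change was 1.01 ± 0.48, with a range of 0.64 to 1.57 over the 19 alternatives.

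Car14 shares 445 of its 2543 exonic bases (17.5%) with Aph1a on the opposite strand, a subunit of gamma-secretase, the protease that cleaves Notch receptors. The sources used here do not say that reads were counted by strand, so reads of the shared stretch cannot be assigned with certainty. Aph1a stood at 89.1 and 54.4 TPM in TSA libraries, at 109, 126 and 165 TPM in GSK-343 libraries, and at 4.96 and 10.1 TPM in DMSO libraries. Aph1a, like Car14, was lower in both TSA libraries than in all GSK-343 libraries. The patterns differed in DMSO, the group with another read layout: Aph1a was lowest there, where Car14 was above its TSA level. The part of shared reads in the level of Car14 was not tested. The log2 fold change of Aph1a was −1.09 for TSA against GSK-343 (edgeR adjusted p = 0.0889), 1.82 for TSA against DMSO (adjusted p = 0.008) and 2.91 in GSK-343 against DMSO (adjusted p = 0.00021).

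**Figure D2:**
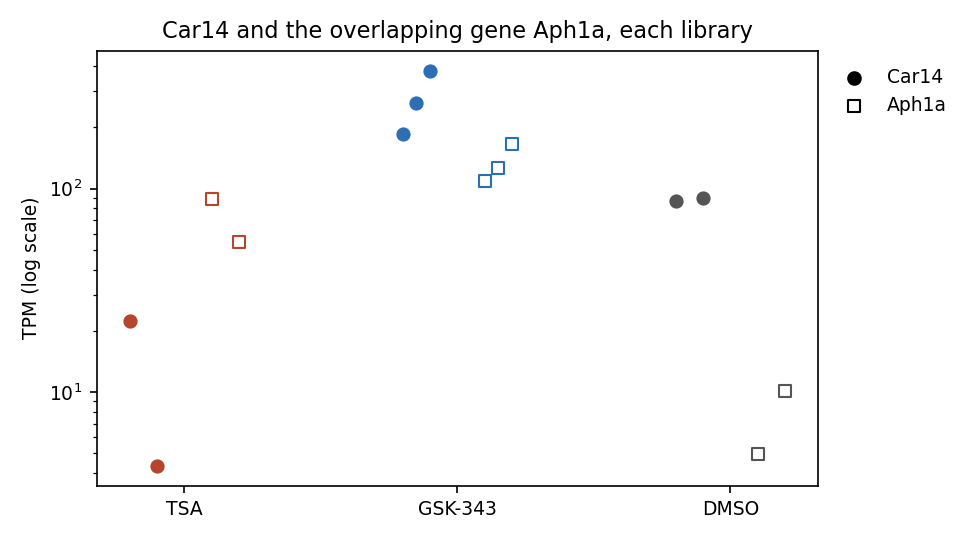
TPM on a log axis for Car14 (filled circles) and the overlapping gene Aph1a (open squares), 1 symbol per library, for TSA, GSK-343 and DMSO. Both genes are lower in TSA than in GSK-343 libraries. Car14 is lowest in TSA (22.3 and 4.34 TPM), and Aph1a is lowest in DMSO (4.96 and 10.1 TPM).

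Car12, the second transmembrane enzyme with an outward active site and a known product of ion-transporting epithelia, was measured at an intermediate level in every group. It stood at 45.3 and 24.2 TPM in TSA libraries, at 19.9, 33.3 and 13.3 TPM in GSK-343 libraries, and at 20 and 15.5 TPM in DMSO libraries. TSA and GSK-343 libraries overlapped, and so did GSK-343 and DMSO libraries. Both TSA libraries were above both DMSO libraries in TPM but not in CPM, at 60.8 and 38.7 CPM in TSA and 59.3 and 48.7 CPM in DMSO libraries. Its log2 fold changes were 0.27 ± 0.42 for TSA against GSK-343 (edgeR adjusted p = 0.726), −0.12 ± 0.46 for TSA against DMSO (0.871) and −0.38 ± 0.41 in GSK-343 against DMSO (0.485). Both values against DMSO turned positive with total count scaling, at 0.61 and 0.09.

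Car9, the transmembrane enzyme induced by low oxygen in many tumours, was low and uneven. It stood at 9.53 and 7.94 TPM in TSA libraries, at 10.7, 6.89 and 0.26 TPM in GSK-343 libraries, and at 0.16 and 1.95 TPM in DMSO libraries. GSK-343 replicate 3 and DMSO replicate 1 held 1 count each, and the other libraries held 12 to 35. On the log2 scale the differences were −0.11 ± 1.15 (edgeR adjusted p = 0.978) for TSA against GSK-343, 1.66 ± 1.34 (0.371) for TSA against DMSO and 1.77 ± 1.26 (0.28) in GSK-343 against DMSO. An antisense gene, Gm12454, covers 214 of its 2304 exonic bases (9.29%) and reached at most 11 counts in a library.

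Car4, which a lipid anchor holds on the outer face of the membrane, was at the limit of detection. It had 3 counts in each TSA library (4.02 and 1.93 TPM), 0 in each GSK-343 library, and 1 and 0 in DMSO libraries (0.66 and 0 TPM). No library was above the floor of 3 counts, so no fold is given, and Car4 did not pass the filter on low counts. It is the 1 member of the 9 that the main edgeR fit did not test. Without the filter, edgeR did not call Car4. Limma on log2 TPM, which filters otherwise, called it higher in TSA than in GSK-343 and in DMSO, on these few counts.

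Among the cytosolic enzymes, Car2 had the highest mean TPM in each group. Car2 is a fast enzyme found in many tissues and long known from the inner ear. It stood at 129 and 63.4 TPM in TSA libraries, at 213, 84.4 and 121 TPM in GSK-343 libraries, and at 26.3 and 45 TPM in DMSO libraries. In TPM all 5 treated libraries were above both DMSO libraries, while in normalised CPM they overlapped with them: 80.1 and 46.3 CPM in TSA, 171, 71.1 and 112 CPM in GSK-343, and 39.8 and 77.2 CPM in DMSO libraries. Its log2 fold change was −0.90 ± 0.44 for TSA against GSK-343 (edgeR adjusted p = 0.197), 0.11 ± 0.47 for TSA against DMSO (0.88) and 1.01 ± 0.44 in GSK-343 against DMSO (0.08). The last of these passed in 8 of 19 alternatives, among them total count scaling (adjusted p = 0.0214).

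Car13, a cytosolic enzyme of broad distribution, was the member that passed in GSK-343 against DMSO. In normalised CPM it stood at 49 and 43.4 in TSA libraries, at 29.7, 22.1 and 22.2 in GSK-343 libraries, and at 68.1 and 36.2 in DMSO libraries. On this scale all GSK-343 libraries were below the others. The log2 fold change was −1.08 ± 0.40 for GSK-343 against DMSO (edgeR adjusted p = 0.042), 0.90 ± 0.40 for TSA against GSK-343 (0.153) and −0.18 ± 0.44 for TSA against DMSO (0.796). In TPM the levels were 58.6 and 43.3 in TSA libraries, 27.8, 18.8 and 17.5 in GSK-343 libraries and 34.1 and 16.2 in DMSO libraries, where GSK-343 and DMSO overlap. The difference between GSK-343 and DMSO stayed negative but lost its call in 12 of 19 alternatives (adjusted p up to 0.779 with limma on log2(TPM + 2)). These included total count scaling (−0.61, adjusted p = 0.238) and leaving out DMSO replicate 1 (−0.51, adjusted p = 0.451), either TSA library (0.0634 each), GSK-343 replicate 2 (0.109) or GSK-343 replicate 3 (0.115). The sign for TSA against DMSO turned with total count scaling, at 0.54.

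Car3, a slow enzyme abundant in skeletal muscle and fat, was close to the floor. It stood at 3.6 and 1.41 TPM in TSA libraries (7 and 3 counts), at 7.48, 6.58 and 11.2 TPM in GSK-343 libraries (13, 12 and 35 counts), and at 0 and 1.32 TPM in DMSO libraries (0 and 8 counts). All GSK-343 libraries were above the others, without overlap. For Car3 the log2 fold change was −1.76 ± 1.24 for TSA against GSK-343 (edgeR adjusted p = 0.38), 0.47 ± 1.38 for TSA against DMSO (0.827) and 2.23 ± 1.28 in GSK-343 against DMSO (0.178). The last passed without DMSO replicate 2 (7.28, adjusted p = 0.0315), a value that depends on the prior count since the remaining DMSO library has no count, and in all 3 limma fits on log2 TPM. Markers of skeletal muscle summed to 4.08 to 10.3 TPM in TSA, 2.73 to 7.68 TPM in GSK-343 and 7.88 to 9.41 TPM in DMSO libraries, and Myog was at 0 in all 7. Adipocyte markers summed to 1.18 to 1.62 TPM in TSA, 1.59 to 8.89 TPM in GSK-343 and 5.79 to 6.48 TPM in DMSO libraries.

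Car2, Car3 and Car13 lie in 1 stretch of chromosome 3, with Car1 between them. Car13 is at chr3:14641727-14663002 and Car1 at chr3:14766216-14808368, followed by Car3 at chr3:14863512-14872523 and Car2 at chr3:14886273-14900770. Car1, a cytosolic enzyme of red blood cells, had 3 counts in DMSO replicate 1 and 0 in the other 6 libraries. Neighbours in this cluster thus differed in GSK-343 libraries between no count (Car1) and 84.4 to 213 TPM (Car2). For GSK-343 against DMSO, Car13 and Car2 had log2 fold changes of opposite sign, of which that of Car13 passed in the main fit. That call was lost in 12 of 19 alternatives, and with total count scaling Car2 passed and Car13 did not. Car14 lies far off on the same chromosome.

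The members without enzyme activity are Car8 and Car11. Car8 binds the inositol trisphosphate receptor of the endoplasmic reticulum. It stood at 9.03 and 17.5 TPM in TSA libraries, at 4.41, 2.36 and 2.71 TPM in GSK-343 libraries, and at 1.6 and 5.73 TPM in DMSO libraries. Both TSA libraries were above all others in TPM, though in CPM TSA (13.2 and 30.5) and DMSO (5.39 and 21.6) overlap. For Car8 the log2 fold change was 1.78 ± 0.67 for TSA against GSK-343 (edgeR adjusted p = 0.0967), 0.69 ± 0.73 for TSA against DMSO (0.505) and −1.08 ± 0.67 in GSK-343 against DMSO (0.216).

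Car11 stood at 18.6 and 3.04 TPM in TSA libraries, at 11.6, 29.2 and 15.9 TPM in GSK-343 libraries, and at 26.2 and 22.7 TPM in DMSO libraries. TSA replicate 2, with 4 counts, was the lowest of all. The log2 fold change was −1.32 ± 0.80 for TSA against GSK-343 (edgeR adjusted p = 0.3), −2.28 ± 0.86 for TSA against DMSO (0.058) and −0.96 ± 0.72 in GSK-343 against DMSO (0.308). The second of these passed with DESeq2's Wald test (adjusted p = 0.0451), without TSA replicate 1 (0.048) and, in turn, without GSK-343 replicate 1 (0.0381).

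Of the 9 members, 8 passed the filter on low counts. For TSA against GSK-343, 0 were called higher and 1 lower (Car14), where 5.04% of all tested genes were called higher and 5.68% lower. For TSA against DMSO, 0 were called higher and 1 lower (Car14 again), beside 13.1% and 16.1% of all tested genes. For GSK-343 against DMSO, 0 were called higher and 1 lower (Car13), beside 18.1% and 21.5%. Where edgeR called 0 higher, 2, 0 and 1 members had an unadjusted p under 0.05, DESeq2's Wald test called 0, 0 and 0, and limma on log2(TPM + 0.5) called 1, 1 and 2, in the same order of comparisons. Car14 had been named from the first contrast, and nothing is read from these counts. The median log2 fold change of the 8 tested members was −0.51, 0.00 and 0.32 in these comparisons, and that of all tested genes was 0.00, −0.05 and −0.04.

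**Figure D3:**
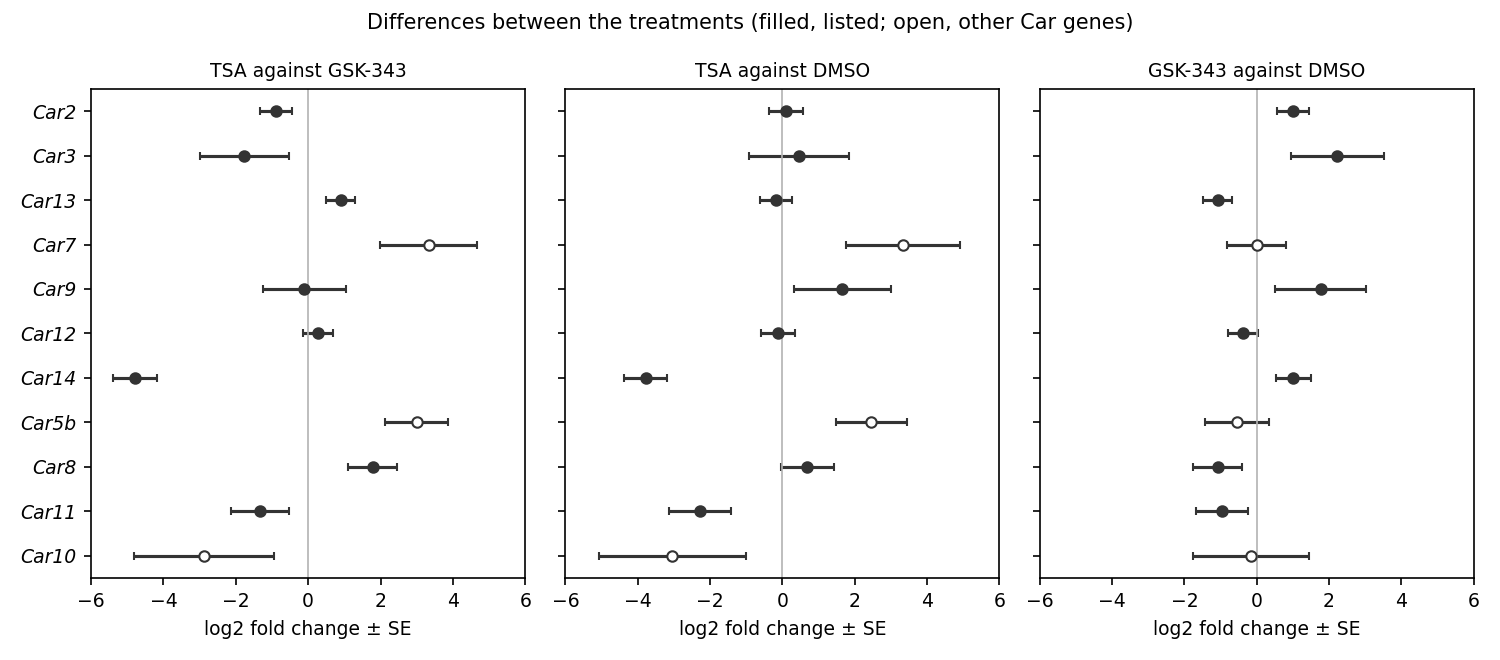
Log2 fold change ± SE (edgeR) of the 11 Car genes tested, for TSA against GSK-343, TSA against DMSO and GSK-343 against DMSO, with listed members filled and other Car genes open. Car14 has the lowest value in the first and second panels (−4.79 and −3.78), and most other intervals of 1 SE lie within 4 log2 units of 0.

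Summed over the 16 Car genes, the family stood at 329 and 194 TPM in TSA libraries, at 481, 452 and 579 TPM in GSK-343 libraries, and at 205 and 208 TPM in DMSO libraries. GSK-343 libraries were above the others without overlap, and TSA and DMSO libraries overlapped. Without Car14 the sum was 307 and 189 TPM in TSA libraries, 296, 189 and 199 TPM in GSK-343 libraries, and 118 and 118 TPM in DMSO libraries, so that TSA and GSK-343 overlapped. The make-up of this sum differed between the groups, above all in Car14 itself. Car14 held 6.78% and 2.24% of the sum in TSA libraries, 38.5%, 58.2% and 65.7% in GSK-343 libraries, and 42.5% and 43.4% in DMSO libraries. All enzymes with an outward active site together held 25.8% and 20.6% in TSA libraries, 44.8%, 67.7% and 68.2% in GSK-343 libraries, and 53% and 52.6% in DMSO libraries. These shares include Car14, which had been named for its low TSA level, so their order is no separate result. The other enzymes with an outward active site summed to 62.7 and 35.5 TPM in TSA libraries, 30.5, 43.2 and 14.7 TPM in GSK-343 libraries, and 21.4 and 19 TPM in DMSO libraries. Here TSA and GSK-343 libraries overlapped, and both TSA libraries were above both DMSO libraries. As a share of the sum without Car14, these enzymes held 20.4% and 18.8% in TSA libraries, 10.3%, 22.9% and 7.39% in GSK-343 libraries, and 18.2% and 16.2% in DMSO libraries. The cytosolic enzymes held 66.8% and 59.2% of that sum in TSA libraries, 84%, 59.1% and 75.2% in GSK-343 libraries, and 52% and 53.6% in DMSO libraries. The TPM ratio of Car14 over Car2 was 0.173 and 0.0684 in TSA libraries, 0.869, 3.12 and 3.15 in GSK-343 libraries, and 3.31 and 2.01 in DMSO libraries. GSK-343 replicate 1 was the only library of its group with more Car2 than Car14.

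**Figure D4:**
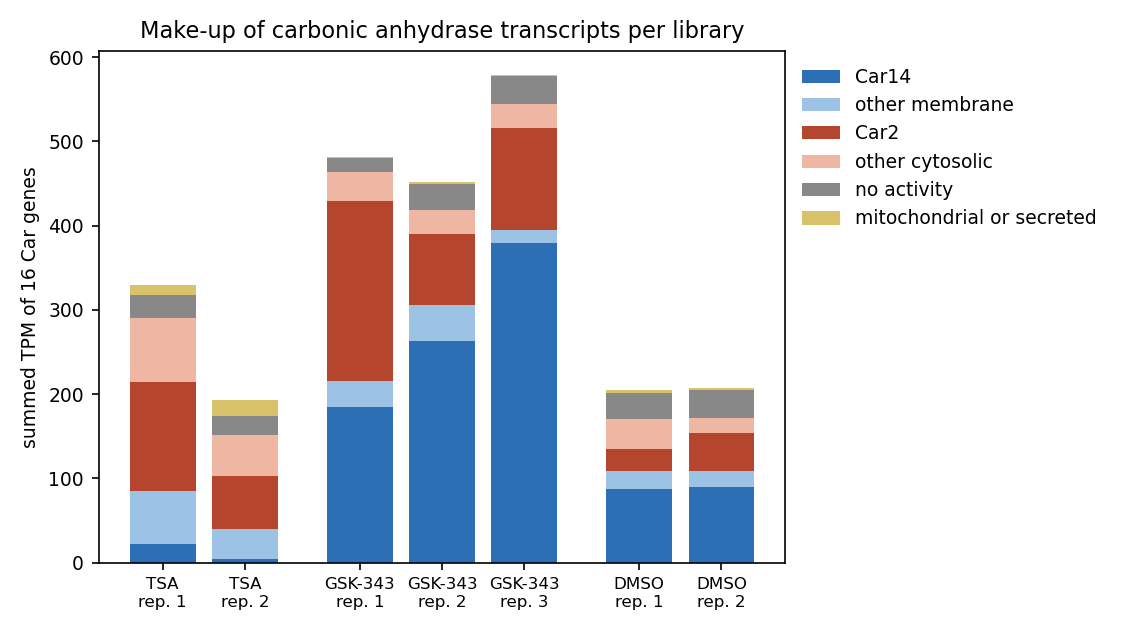
Stacked bars of summed TPM of the 16 Car genes, 1 bar per library, for TSA, GSK-343 and DMSO, split into Car14, other membrane enzymes, Car2, other cytosolic enzymes, members without activity, and mitochondrial or secreted enzymes. The Car14 segment is thin in TSA bars (6.78% and 2.24% of the sum) and makes up 38.5% to 65.7% of GSK-343 bars and 42.5% to 43.4% of DMSO bars.

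The order of mean levels within each group was as follows. In TSA libraries Car2 led with 96.1 ± 46.2 TPM (SD, n = 2), then Car13 with 51 ± 10.8 TPM and Car12 with 34.8 ± 14.9 TPM, and Car13 and Car12 overlapped. Behind them, Car5b, Car14, Car8 and Car11 had means of 10.8 to 13.5 TPM and overlapped each other. In GSK-343 libraries Car14 (276 ± 98.1 TPM, SD, n = 3) and Car2 (139 ± 66.4 TPM) overlapped, followed by Car12, Car13 and Car11 at 22.2 ± 10.2, 21.4 ± 5.65 and 18.9 ± 9.21 TPM, which could not be ordered beyond their spread. In DMSO libraries Car14 (88.7 ± 2.22 TPM, SD, n = 2) was above Car2 (35.7 ± 13.2 TPM) without overlap. Car2 and Car13 (25.2 ± 12.6 TPM) overlapped, and so did Car13 and Car11 (24.4 ± 2.5 TPM).

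Of the 7 Car genes outside the list, 3 passed the filter, and 1 of them was called. Car5b, a mitochondrial enzyme, stood at 9.8 and 17.1 TPM in TSA libraries, at 0.86, 2.54 and 0.59 TPM in GSK-343 libraries, and at 0.38 and 1.84 TPM in DMSO libraries. It was 8.01-fold higher in TSA than in GSK-343 (log2 fold change 3.0 ± 0.87; edgeR adjusted p = 0.0387), with no overlap. This call was lost in 7 of 18 alternatives, among them leaving out TSA replicate 1 (adjusted p = 0.0517), GSK-343 replicate 1 (0.0665), GSK-343 replicate 3 (0.109) or TSA replicate 2 (0.432). The value was 2.46 ± 0.98 for TSA against DMSO (0.0707) and −0.55 ± 0.89 in GSK-343 against DMSO (0.655). TSA against DMSO passed in 8 of 18 alternatives, among them total count scaling (3.12, adjusted p = 0.0265) and leaving out DMSO replicate 2 (4.10, adjusted p = 0.0391).

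Car7, a cytosolic enzyme best known from neurons, stood at 13.9 and 3.99 TPM in TSA libraries, at 0, 1.86 and 0 TPM in GSK-343 libraries, and at 0.17 and 0.48 TPM in DMSO libraries. Both TSA libraries were above the rest in TPM. The same order held for Car4, Car5b, Car6, Car8, Car13 and the summed neuron markers. In CPM, TSA and DMSO libraries overlapped for Car8 and Car13, and Car4 and Car6 had few counts. The part of neurons in the level of Car7 was not tested. For Car7 the log2 fold change was 3.33 ± 1.35 for TSA against GSK-343 (edgeR adjusted p = 0.121) and 3.33 ± 1.57 for TSA against DMSO (0.123). The first of these passed in 1 of 18 alternatives (without GSK-343 replicate 2, adjusted p = 0.0374), and the second in 4 of 18, which were the fit of only the 2 groups compared (adjusted p = 0.0416) and the 3 limma fits. Car10, a member without activity known from brain, had 3 and 6 counts in TSA libraries, 126 counts in GSK-343 replicate 3 and none in the other GSK-343 libraries, and 39 and 50 counts in DMSO libraries. A single library thus sets its GSK-343 level: with it, the log2 fold change for GSK-343 against DMSO was −0.16 (edgeR adjusted p = 0.948), and without it −8.37 (adjusted p = 0.00229), a value that depends on the prior count because the remaining libraries have no count. Car6, a secreted enzyme, had 1 and 6 counts in TSA libraries and 0 elsewhere. Car5a, the second mitochondrial enzyme, had 6 and 1 counts in DMSO libraries and 0 elsewhere. Car15, which shares 65.7% of its exonic bases with Gm20518 and is uncertain for that reason, stayed under 8 counts.

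Genes of bicarbonate and proton transport, which act on the products of these enzymes, were described from lists, for which the shares and medians of all tested genes given above are the background. Of 15 bicarbonate transporters 7 were tested, with 1 higher and 0 lower in TSA than in GSK-343, 0 and 0 in TSA against DMSO, and 0 and 3 in GSK-343 against DMSO. At an unadjusted p under 0.05 these counts were 1 and 0, 1 and 0, and 1 and 3, with the same numbers by DESeq2's Wald test, and limma on log2(TPM + 0.5) gave 0 and 0, 0 and 2, and 0 and 3. Their median log2 fold changes were 0.85, −0.16 and −0.55. Slc4a7, an electroneutral sodium bicarbonate cotransporter needed for hearing in mice, was lower in GSK-343 than in DMSO by the edgeR fit (−1.72 ± 0.42, adjusted p = 0.00491), with 17.4, 6.36 and 7.46 TPM in GSK-343 libraries and 23.5 and 15.8 TPM in DMSO libraries, where the TPM values overlap. Slc4a8, a sodium-driven chloride bicarbonate exchanger, was higher in TSA than in GSK-343 (1.43 ± 0.43, adjusted p = 0.0437), although its TPM values, 14.4 and 8.9 in TSA libraries and 28.1, 6.21 and 4.51 in GSK-343 libraries, overlap. In GSK-343 against DMSO Slc4a8 was called lower (−1.59 ± 0.42, adjusted p = 0.00837), but with 4.78 and 5.99 TPM in DMSO libraries the TPM values overlap, and 2 of the 3 GSK-343 libraries were above both DMSO libraries on that scale. Slc4a5, also called lower there (−3.88 ± 1.34, adjusted p = 0.0319), was below 3 TPM in every library.

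Of the 22 proton pump subunits, 17 were tested. In TSA against DMSO 10 were higher and 0 lower, and in GSK-343 against DMSO 11 were higher and 0 lower, with median log2 fold changes of 1.31 and 1.25. The unadjusted p under 0.05 gave 11 and 0 in both, DESeq2's Wald test 10 and 0 and 11 and 0, and limma on log2(TPM + 0.5) 13 and 0 in both. In TSA against GSK-343, 1 was higher and 1 lower, with a median of −0.28. Atp6v0b, a subunit of the membrane ring of the vacuolar proton pump, stood at 949 and 859 TPM in TSA libraries, at 1200, 850 and 950 TPM in GSK-343 libraries, and at 49.5 and 60.2 TPM in DMSO libraries. Its log2 fold change was 3.14 ± 0.35 in TSA against DMSO (edgeR adjusted p = 3.39e-05) and 3.63 ± 0.34 in GSK-343 against DMSO (5.12e-06). Atp6v1a, a catalytic subunit, was higher in TSA than in GSK-343 (1.17 ± 0.35, adjusted p = 0.043), and Atp6v0c, which also lies in the membrane ring, was lower (−1.26 ± 0.37, adjusted p = 0.042). The differences of the subunits from DMSO coincide with the difference in read layout.

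Of 27 genes of the hypoxia response, the pathway that induces Car9, 25 were tested. In TSA against GSK-343, 0 were higher and 1 lower: Ldha, the enzyme that makes lactate, with 94.9 and 62.4 TPM in TSA libraries and 202, 282 and 151 TPM in GSK-343 libraries (−1.82 ± 0.38, edgeR adjusted p = 0.0101). At an unadjusted p under 0.05, 4 were higher and 5 lower, DESeq2's Wald test called 2 and 1, and limma on log2(TPM + 0.5) 0 and 0. In TSA against DMSO 3 were higher and 4 lower, and in GSK-343 against DMSO 5 were higher and 3 lower. Slc2a1, the glucose transporter, was lower in TSA than in DMSO (−2.23 ± 0.40, adjusted p = 0.00121), and P4ha1, a collagen prolyl hydroxylase, was higher (2.01 ± 0.49, adjusted p = 0.00752). P4ha1 was also higher in GSK-343 than in DMSO (2.57 ± 0.47, adjusted p = 8.65e-04). Slc2a1 stood at 41.4, 46.2 and 46.8 TPM in GSK-343 libraries, also below the 80 and 61.1 TPM of DMSO libraries. These differences from DMSO coincide with the difference in read layout. The median log2 fold changes of the list were −0.40, 0.07 and −0.07.

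The genes whose levels ran most like a member's over the 7 libraries were found by Pearson's r of log2(TPM + 1) among 10141 protein-coding genes, as a description with no test, since the libraries share their layouts and depths. For Car14 they were Dhrs4 (r = 0.987), Apex2 (0.987) and Efhd1 (0.980). Dhrs4, a retinol and carbonyl reductase, stood at 16 and 5.7 TPM in TSA libraries. It stood at 48.4, 73 and 71.8 TPM in GSK-343 libraries, and at 24.9 and 29.2 TPM in DMSO libraries. Apex2, a nuclease of DNA repair, stood at 6.42 and 4.32 TPM in TSA libraries, at 9.91, 11.9 and 11.3 TPM in GSK-343 libraries, and at 7.79 and 8.51 TPM in DMSO libraries. The genes most like the other members were Slc43a2 for Car2 (r = 0.993), Gpr155 for Car13 (0.981), Taf13 for Car8 (0.983), Kctd17 for Car11 (0.983) and Evc2 for Car12 (0.950).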

How the data were processed

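STAR, RSEM, DESeq2 and the build mm10 are named, without roles, per the submitters' processing notes; versions are not given in the sources used here. The expected count per gene and the TPM deposited by the authors are RSEM's, per the file headers. With version suffixes dropped, 48349 of 48709 gene IDs were found in GENCODE M21. Expected counts were rounded and fitted over all 7 libraries with edgeR 4.0.16 (R 4.3.3; TMM, filterByExpr, robust quasi-likelihood F tests, 4 residual degrees of freedom, Benjamini-Hochberg over 14907 genes, threshold 0.05). The SE is |log2 fold change| divided by the root of the F statistic. The steps were tested on simulated data. The members and lists were chosen with earlier results of these data known. Genes are named if they carry a Car symbol, are among the 4 members of a list with the smallest adjusted p, or are among the 3 most like a member by Pearson's r; the overlapping genes, the markers named as at 0 (Myog and Hbb-bt), and the examples taken from each of these, were chosen after their values were seen.

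Alternatives were DESeq2 1.42.0 size factors and Wald test, total count scaling, no filter, at least 50 counts in 2 libraries, only the groups compared, the replicate number as a block, limma 3.58.1 on log2 TPM (pseudocounts 0.5 and 2), nuclear protein-coding genes alone, and each library left out. A fit without robust estimation was added after the data were seen. A floor is 3 counts in a library and covers counting error only. Replicates of a group differed by more than sampling noise.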

Additional observations from a re-analysis of the deposited data

How the results depend on the processing

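For the 11 Car genes tested, 612 values were recomputed: 513 kept their sign and their side of the threshold, 19 lost a call, 37 gained one and 43 changed sign. No value of Car14 or Car11 changed sign, and nothing is read from this for Car14, which had been named from these libraries. Total count scaling brought the median log2 fold change of all genes to 0.20, 0.65 and 0.42 (TSA against GSK-343, TSA against DMSO, GSK-343 against DMSO), where TMM gave 0.00, −0.05 and −0.04, and the higher share of calls to 70.3%, 74.8% and 63.5%, against 47.1%, 44.9% and 45.7% with TMM. With limma on log2(TPM + 0.5) that share was 82.7%, 67% and 56.9%. The cause of the changes below was not tested, except where the construction of the fit shows it.

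Signs changed as follows. With total count scaling, Car9 in TSA against GSK-343 was 0.13, Car12 and Car13 in TSA against DMSO were 0.61 and 0.54, and Car12 and Car10 in GSK-343 against DMSO were 0.09 and 0.27. With limma (pseudocount 0.5 under either filter, then 2), Car9 in TSA against GSK-343 was 1.21 and 0.76, Car12 in TSA against DMSO 0.90 and 0.85, Car13 there 1.08 and 1.03, Car12 in GSK-343 against DMSO 0.23 and 0.22, and Car5b there 0.20 and 0.09. Car7 in GSK-343 against DMSO was −0.07 with DESeq2 size factors, −0.11 with its Wald test and −0.06 with nuclear protein-coding genes alone. With the replicate block, which leaves GSK-343 replicate 3 without a partner, Car10 in TSA against GSK-343 was 5.37. Over the fits that each left out 1 library, TSA against GSK-343 ranged from −0.64 to 0.53 for Car9, −3.51 to 5.37 for Car10 and −0.10 to 0.68 for Car12. TSA against DMSO ranged from −0.28 to 0.68 for Car2, −0.51 to 5.50 for Car3, −0.43 to 0.21 for Car12 and −0.54 to 0.38 for Car13. GSK-343 against DMSO ranged from −1.44 to 1.10 for Car5b, −4.02 to 1.06 for Car7, −1.72 to 0.26 for Car8 and −8.37 to 0.43 for Car10.

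Calls over all genes also moved. For TSA against GSK-343, 752 were higher and 846 lower. The replicate block gave 325 and 527, total count scaling 431 lower, and limma 158, 182 and 84 lower (pseudocount 0.5, 2, and 0.5 with the looser filter). Leaving out 1 library gave 83 to 940 higher and 79 to 1171 lower, with the lowest counts without TSA replicate 2. For TSA against DMSO, 1957 were higher and 2402 lower. Total count scaling gave 3871 and 1307, limma 4939, 5050 and 5026 higher and, with the looser filter, 4673 lower, and leaving out 1 library 1068 to 2350 higher and 916 to 2874 lower. For GSK-343 against DMSO, 2695 were higher and 3208 lower. Limma gave 4181 higher with pseudocount 0.5, and 4143 higher and 5830 lower with the looser filter. Leaving out 1 library gave 1918 to 2770 higher and 2561 to 3716 lower.

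Car14 had been named from these libraries, so nothing is read from the calls of Car14 below. Under each of its 3 settings, limma called 1 listed member higher in TSA than in GSK-343 and 1 higher in TSA than in DMSO. This is Car4, which has 3 counts in each TSA library. In TSA against DMSO, 2 were called lower with DESeq2's Wald test (Car11 joined Car14), and 1 to 2 when a library was left out. In GSK-343 against DMSO, 2 were called higher with total count scaling and with no filter (Car2 and Car14), and 2 with each limma setting (Car2 and Car3); leaving out 1 library gave 0 to 2 higher. The 1 call lower there (Car13) became 0 with total count scaling, no filter, only the 2 groups, the replicate block and each limma setting, and 0 to 1 when a library was left out.

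Same-numbered libraries did not deviate together (r = −0.094 to 0.04), so the numbers are not taken to pair the libraries, and the replicate block is an alternative only. Leaving out a TSA or DMSO library leaves 1 in that group, which is then assumed to vary like the others. Members with few counts (Car3, Car4, Car9, Car11) are limited by depth: 3 counts are 0.502 to 1.10 CPM before scaling.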

Other observations

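Further lists were described in the same comparisons, with the shares of all tested genes given above as the background. The receptors Ptprg and Ptprz1 carry a carbonic anhydrase-like domain on the cell surface, and both were lower in GSK-343 than in DMSO by edgeR's quasi-likelihood test. Ptprz1 stood at 121, 104 and 45.1 TPM in GSK-343 libraries and at 192 and 139 TPM in DMSO libraries (log2 fold change −1.47 ± 0.34, adjusted p = 0.0035). Ptprg stood at 141, 70.9 and 82.9 TPM in GSK-343 libraries and at 276 and 194 TPM in DMSO libraries (−1.22 ± 0.33, adjusted p = 0.00834). In TSA against GSK-343 their adjusted p was 0.337 and 0.606. In TSA against DMSO the log2 fold change was −0.95 ± 0.38 for Ptprz1 (edgeR adjusted p = 0.0722). It was −0.93 ± 0.37 for Ptprg (0.0679), so both were negative there too but did not pass. TSA libraries stood at 198 and 143 TPM for Ptprz1, which overlap DMSO, and at 181 and 137 TPM for Ptprg. DESeq2's Wald test called 1 of the 2 lower there, and limma on log2 TPM called 0. In GSK-343 against DMSO these tests called 2 and 1 lower.

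Of 10 sodium-proton exchangers and their scaffold proteins, 0 were called in TSA against GSK-343 by edgeR, DESeq2 or limma (2 were higher and 2 lower at an unadjusted p under 0.05), 3 were higher and 0 lower in TSA against DMSO, and 2 were higher and 1 lower in GSK-343 against DMSO. Slc9a2, an exchanger of epithelial membranes, stood at 29.2 and 26.3 TPM in TSA libraries, at 22.4, 11.7 and 15.5 TPM in GSK-343 libraries, and at 2.46 and 2.69 TPM in DMSO libraries (2.29 ± 0.47, adjusted p = 0.00297 for TSA against DMSO; 1.88 ± 0.44, adjusted p = 0.00393 for GSK-343 against DMSO). Of 6 monocarboxylate transporters and their partners, 5 were tested, with 1 higher and 1 lower in TSA than in GSK-343. Bsg, the chaperone of these transporters, was the lower one, with 652 and 406 TPM in TSA libraries and 639, 1442 and 1225 TPM in GSK-343 libraries (−1.47 ± 0.38, adjusted p = 0.0267), values that overlap in TPM.

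Schwann and satellite glia markers summed to 48.6 to 110 TPM in TSA, 91.7 to 130 TPM in GSK-343 and 10.2 to 20.7 TPM in DMSO libraries. Erythroid markers summed to 10.7 to 14.6 TPM in TSA, 1.36 to 6.2 TPM in GSK-343 and 7.3 to 10.3 TPM in DMSO libraries, and Hbb-bt was at 0 in all 7. Markers of the stria vascularis summed to 9.67 to 12.8 TPM in TSA, 8.94 to 17 TPM in GSK-343 and 2.16 to 14 TPM in DMSO libraries. The part of these cells in the members' levels was not tested.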
